A study of Homo sapiens with 2 samples.

Results

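The 9 squamous lineage transcription factors TP63, SOX2, KLF4, KLF5, GRHL3, ZNF750, PITX1, TFAP2A and MAF were followed in the established tongue carcinoma line Cal-27, which is squamous in origin. They were chosen by gene name as regulators of basal identity and squamous differentiation, and all 9 were found among the 20263 genes of both deposited tables. The study compared Cal-27 cells stably transduced with a scrambled control shRNA with Cal-27 cells that stably carried an shRNA (sh-HIPK2) directed at the nuclear kinase gene HIPK2. Both cultures grew in the same regular medium. The labels do not say whether a culture was a clone or a pool, and there was 1 library per group. The differences below were thus not checked in replicates and carry no p-values. They describe these 2 libraries rather than the conditions.

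Stratified squamous epithelium is built from a basal layer of dividing cells that turns into layers of differentiating cells. TP63 is the factor best known for establishing the basal layer, mostly through a form (deltaN) that starts inside the gene, and SOX2 works with it in squamous carcinomas. KLF4, GRHL3, ZNF750 and MAF are known for driving the later, terminal programme, KLF5 is active in the proliferating layers, and TFAP2A and PITX1 are early regulators of surface ectoderm and of oral and limb structures. HIPK2 is known to phosphorylate deltaN p63 and to promote its breakdown, an effect on protein that RNA levels do not show.

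Total counts were 28064923 (control) and 26450251. The targeted gene did not settle the label. HIPK2 counts were 110 in the control and 218 in the library meant to carry its shRNA, whereas its deposited TPM (transcript abundance scaled for length and depth) was 1.63 and 0.873. That sample is therefore called the library labelled sh-HIPK2. Of 11 squamous epithelial markers, 11 were expressed and 11 lay within 1.5-fold, beside 79.4% of all expressed genes. KRT5 was at 2766 and 2554 CPM (counts scaled for depth, with TMM factors). Of 6 leukocyte markers 3 were expressed (CD68, CD14 and ITGAM), with 29.6 and 25.9 CPM summed over them, while the defining PTPRC and CD3E had 0 counts in both libraries. Of 6 fibroblast markers 3 were expressed (COL1A1, COL1A2 and PDGFRB), with 18.0 and 21.4 CPM in sum, and DCN had 0 counts in both. Of 4 endothelial markers VWF and the cadherin gene CDH5 (55.2 and 27.3 CPM) were expressed, with 56.1 and 28.5 CPM in sum, and PECAM1 and TEK had 0 counts in both. Markers of simple epithelia were lower in 4 of the 4 expressed. KRT8 was at 3408 and 2422 CPM, KRT18 at 2260 and 1704 CPM and KRT7 at 77.3 and 30.8 CPM, 2.51-fold lower (2.31 to 2.72). The part of other cell types in the results was not tested. In a bulk library fewer cells of a type and less RNA per cell cannot be told apart.

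The members separated into 6 that were expressed and 3 that were at or near 0, and the 6 expressed ones differed little between the libraries in counts. Expressed means at least 1 CPM in at least 1 library. Those 6 were PITX1, TP63, TFAP2A, KLF5, KLF4 and SOX2, and GRHL3, ZNF750 and MAF were below that level in both. Log2 ratios set CPM + 1 of the library labelled sh-HIPK2 over CPM + 1 of the control, which understates differences of low genes. Of the 6 expressed members 0 passed 2-fold, which is a size threshold without a test, beside 6.13% of 11813 expressed genes. All 6 lay within 1.5-fold, beside 79.4% of expressed genes, and in TPM 5 of 6 did, beside 82.1%. With so few members none of these counts stands apart from its background. Their log2 ratios ran from -0.24 to 0.18 with a median of 0.03, and 4 were higher and 2 lower. Over all expressed genes the median was 0.0, with 5909 higher and 5904 lower. Brackets below hold 95% exact intervals, Poisson for a level and Clopper-Pearson for a ratio, and cover counting error only.

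**Figure D1:**
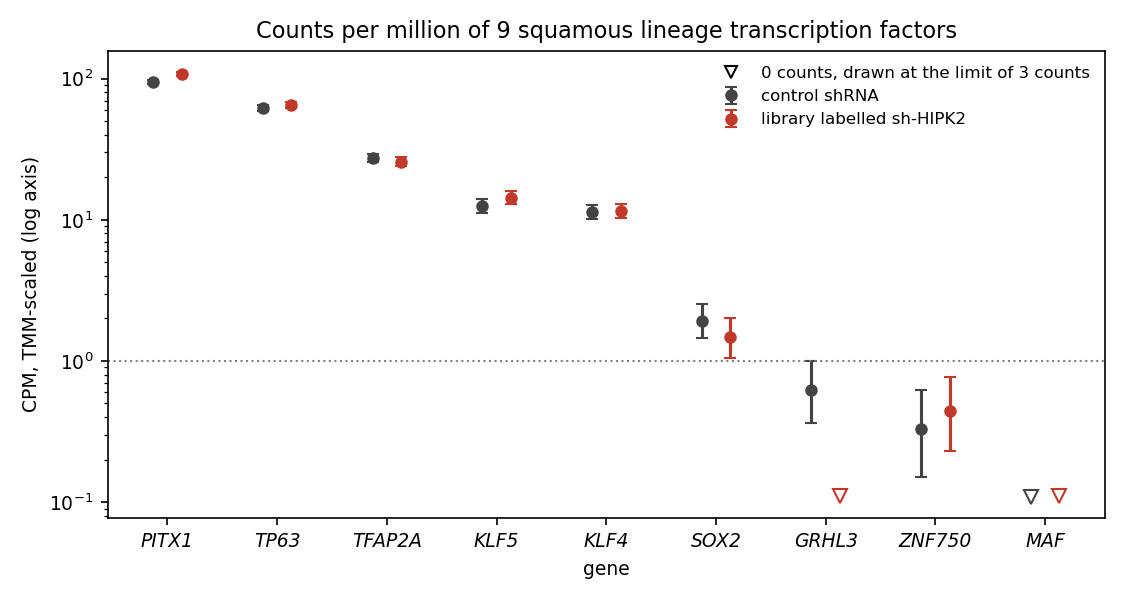
Level of each of the 9 genes in CPM on a log axis, in the control library (grey) and in the library labelled sh-HIPK2 (red), with 95% Poisson intervals. The dotted line is 1 CPM, and open triangles mark 0 counts, drawn at the limit of 3 counts. PITX1 and TP63 lie highest, and GRHL3 has a point in the control library and a triangle in the other.

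TP63, the regulator of basal identity, was counted 1703 times in the control and 1752 times in the library labelled sh-HIPK2. The intervals of its level, 62.1 CPM (59.2 to 65.1) and then 64.7 CPM (61.7 to 67.8), overlapped. The CPM ratio was 1.04 (0.975 to 1.12), and 88.3% of expressed genes had a larger absolute log2 ratio. The deposited TPM of TP63 was 20.7 and 23.1, a ratio of 1.12. TP63 (ENSG00000073282) lies on the plus strand of chromosome 3 from 189631427 to 189897279 in GRCh38, and a gene-level count cannot separate the long form from the deltaN form.

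SOX2, the SOX factor that partners with TP63 in squamous carcinoma, was low. Its counts were 53 (control) and 40, which is 1.93 CPM (1.45 to 2.53) and 1.48 CPM (1.06 to 2.01). The ratio was 0.765 (0.494 to 1.18), an interval wide enough to hold both no difference and a 2-fold lower level. SOX2 (ENSG00000181449, chromosome 3, 181711924 to 181714436, plus strand) lies 7.92 Mb from TP63. It sits inside the long non-coding gene SOX2-OT but shares 0 exon bases with it.

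The KLF factors of the list, zinc finger proteins that bind GC-rich CACCC boxes, were at similar levels. KLF4, of the differentiating layers, had 313 and 311 counts, or 11.4 CPM (10.2 to 12.7) in the control and 11.5 CPM (10.3 to 12.8) in the library labelled sh-HIPK2. Its ratio was 1.01, and the counting interval (0.858 to 1.18) stayed within 1.5-fold in both directions. KLF5, of the proliferating layers, had 344 and 389 counts, or 12.5 CPM (11.2 to 13.9) and 14.4 CPM (12.98 to 15.9). The KLF5 ratio was 1.15 (0.989 to 1.33), and the intervals of both libraries overlapped. KLF4 (ENSG00000136826) spans 107484852 to 107490482 on the minus strand of chromosome 9, and KLF5 (ENSG00000102554) spans 73054976 to 73077542 on the plus strand of chromosome 13.

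TFAP2A, the AP-2 alpha factor, was counted 752 times in the control and 697 times in the library labelled sh-HIPK2. This is 27.4 CPM (25.5 to 29.4) and 25.8 CPM (23.9 to 27.7), with overlapping intervals and a ratio of 0.940 (0.846 to 1.04). TFAP2A (ENSG00000137203, chromosome 6, 10393186 to 10419638, minus strand) shares 438 exon bases with the antisense gene TFAP2A-AS1 and 941 with TFAP2A-AS2. Neither antisense gene has a row in the tables, and whether counting used strand is not stated in the labels.

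PITX1, a homeodomain factor of oral and hindlimb development, had the highest level of the 9 genes. Its counts were 2595 in the control and 2910 in the library labelled sh-HIPK2, or 94.6 CPM (91.0 to 98.3) and 108 CPM (104 to 112). The counting intervals of PITX1 did not overlap, unlike those of the 5 other expressed members, but the ratio was only 1.14 (1.08 to 1.20). In TPM it was 57.9 and 100.4, a ratio of 1.73 and a log2 ratio of (TPM + 1) of 0.78, so the size of the difference depends on the unit. PITX1 (ENSG00000069011) lies on the minus strand of chromosome 5 from 135027735 to 135034813 and shares 293 exon bases with an antisense gene, AC008406.3, that has no row in the tables.

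**Figure D2:**
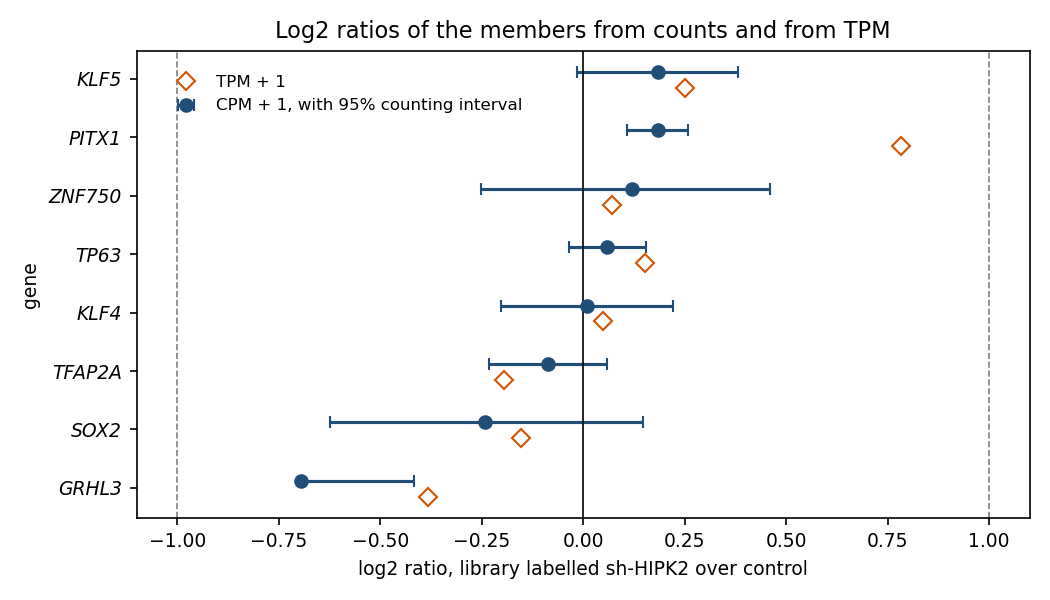
Log2 ratio of the library labelled sh-HIPK2 over the control for the 8 members with a count in either library, from CPM + 1 with 95% counting intervals (filled) and from TPM + 1 (open). Dashed lines mark 2-fold, and MAF, at 0 in both libraries, is left out. PITX1 is the member whose TPM value (0.78) lies far from its CPM value (0.18), and GRHL3 lies lowest at -0.70 in CPM.

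Count and TPM of a gene are tied by the transcript length that the authors' method used. Where GENCODE annotates 1 transcript, the quotient of count and TPM, scaled by 1 constant per library, gave the annotated length within 5% for 98.7% of 469 genes (control) and 98.7% of 475 genes. By this measure the implied length of PITX1 was 2280 bases in the control and 1603 bases in the library labelled sh-HIPK2, 0.703 of the control value. GENCODE 29 annotates 6 PITX1 transcripts of 587 to 2406 bases, among them coding ones of 2406 and 1305 bases. The implied length of TFAP2A went the other way, 2124 and 2469 bases. TP63 (4197 and 4202 bases), KLF5 (3565 and 3565 bases) and KLF4 (2530 and 2625 bases) differed by less than 5%. For HIPK2, whose count and TPM went opposite ways, it was 3443 bases in the control and 13819 bases in the other library, 4.01 times the control value. Among 9103 expressed genes with at least 100 counts in both libraries, 77.9% kept their implied length within 10%, and 2.83% differed by more than 1.5-fold. Whether different transcripts were present or reads were only assigned differently was not tested.

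**Figure D3:**
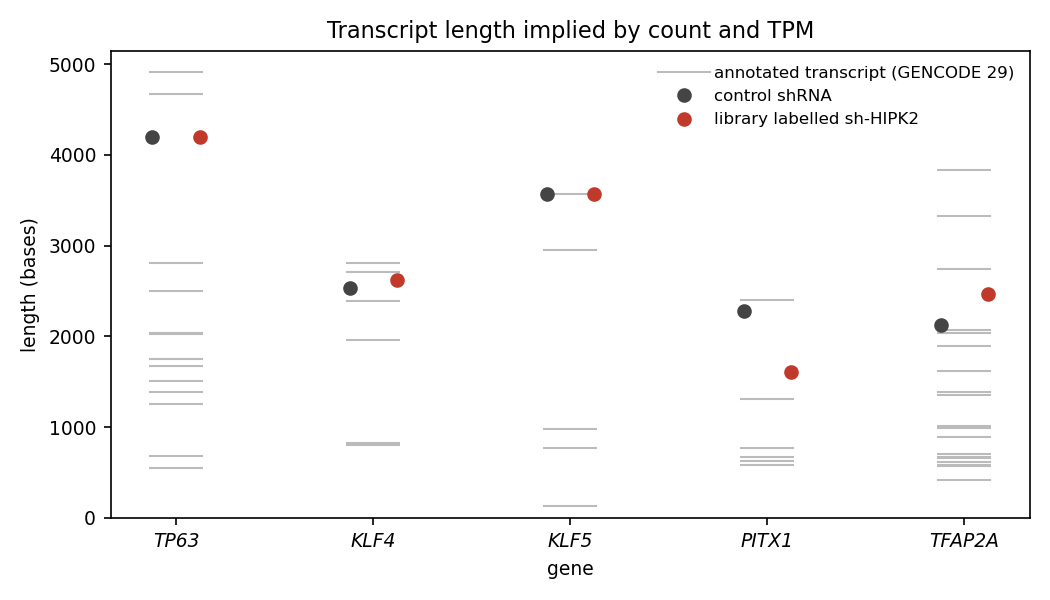
Transcript length in bases implied by count and TPM for the 5 members with at least 100 counts in each library, in the control (grey) and in the library labelled sh-HIPK2 (red), beside the annotated transcript lengths (grey ticks). The points of TP63 and KLF5 lie within 5% of each other in both libraries, and PITX1 moves from 2280 to 1603 bases.

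Apart from KLF4, the members of the terminal programme were scarce or at 0. GRHL3, a grainyhead-like factor of barrier formation, was counted 17 times in the control (0.620 CPM, 0.361 to 0.992) and 0 in the library labelled sh-HIPK2, which allows up to 3 counts or 0.111 CPM. Against that limit of 3 counts it was at least 5.59-fold lower there, which takes the 17 control counts as given, and by the exact interval of the ratio at least 4.07-fold lower. By either value this was the largest difference among the members, although the control level was under 1 CPM. ZNF750, a zinc finger factor that acts with KLF4 in epidermal differentiation, had 9 and 12 counts (0.328 and 0.443 CPM), and its ratio of 1.35 (0.523 to 3.63) was not resolved at this depth. MAF, a leucine zipper factor of keratinocyte differentiation, had 0 counts in both libraries, which allows up to 0.109 and 0.111 CPM.

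GRHL3 (ENSG00000158055) spans 24319322 to 24364482 on the plus strand of chromosome 1, ZNF750 (ENSG00000141579) spans 82829435 to 82840578 on the minus strand of chromosome 17 and MAF (ENSG00000178573) spans 79585843 to 79600714 on the minus strand of chromosome 16. ZNF750 lies inside the span of TBCD on the opposite strand and shares 0 exon bases with it. TBCD, a tubulin chaperone, had 2863 and 2997 counts, far more than ZNF750, and the part of TBCD reads in the ZNF750 count was not tested.

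The sequences upstream of GRHL3 and PITX1 are shown because these were the members with the largest difference in counts and in TPM. Each is the 250 bases before a RefSeq start in GRCh38.p14, and capitals mark CACCC on either strand, the core that KLF4 and KLF5 bind. The windows are chr1:24319107-24319356 and chr1:24322790-24323039 on the plus strand for GRHL3 and chr5:135034229-135034478 on the minus strand for PITX1. The PITX1 window and the second GRHL3 window lie within the spans of their deposited rows. The first GRHL3 window overlaps the start of its row.
GRHL3 upstream start: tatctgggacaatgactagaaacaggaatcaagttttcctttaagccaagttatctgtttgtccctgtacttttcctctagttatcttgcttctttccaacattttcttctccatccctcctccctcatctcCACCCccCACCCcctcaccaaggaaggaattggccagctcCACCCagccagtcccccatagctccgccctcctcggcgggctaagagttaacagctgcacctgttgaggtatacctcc
GRHL3 downstream start: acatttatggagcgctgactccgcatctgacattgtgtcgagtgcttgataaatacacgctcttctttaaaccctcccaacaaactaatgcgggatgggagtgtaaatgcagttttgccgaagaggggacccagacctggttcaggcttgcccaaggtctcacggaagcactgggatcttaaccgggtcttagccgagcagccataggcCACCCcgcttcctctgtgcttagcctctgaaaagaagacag
PITX1: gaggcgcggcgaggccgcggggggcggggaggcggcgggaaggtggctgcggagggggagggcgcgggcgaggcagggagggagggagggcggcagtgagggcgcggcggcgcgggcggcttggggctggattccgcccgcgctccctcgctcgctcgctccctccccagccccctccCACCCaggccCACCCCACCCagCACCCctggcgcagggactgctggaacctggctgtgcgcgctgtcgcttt
The first GRHL3 window held 3 matches to CACCC, the other held 1 and the PITX1 window held 4. PITX1 has 79.2% G and C in this window and the GRHL3 windows 50.8% and 52%, beside a median of 58% over 35116 windows.

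The RefSeq table held 11 windows for 8 of the members, with ZNF750 as the missing entry. The only TP63 window (chr3:189631139-189631388) lies before the start of its deposited row. The start of the deltaN form inside the gene therefore has no window. CACCC occurred in 7 of the 11 windows, beside 54.7% of all 35116. The AP-2 motif GCCNNNGGC, searched on both strands, occurred in 3 of 11 beside 19.8% of all, in windows of KLF4, SOX2 and the downstream start of GRHL3. ACAATG of the SOX family occurred in 3 of 11 beside 9.29%, and the 0 matches to AACCNGTT (grainyhead-like), TAATCC (PITX) and TGCTGAC (MAF) stand beside shares of 1.49%, 5.62% and 3.43%. The motifs were not masked for overlaps with each other. A match describes letters only and no binding was measured.

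In TPM, which allows levels of different genes to be compared, the order in the control was PITX1 (57.9), TP63 (20.7), TFAP2A (18.0), KLF4 (6.30), KLF5 (4.91), SOX2 (1.07), GRHL3 (0.303), ZNF750 (0.121) and MAF (listed at 0). The library labelled sh-HIPK2 kept that order for the first 6 genes, at 100.4, 23.1, 15.6, 6.56, 6.04 and 0.864 TPM, and had ZNF750 (0.179) above GRHL3 and MAF (both listed at 0). PITX1 stood 2.80 times above TP63 in the control and 4.35 times above it in the library labelled sh-HIPK2. The closest neighbours, TP63 with TFAP2A (1.15 and 1.48 times) and KLF4 with KLF5 (1.28 and 1.09 times), cannot be separated beyond a spread that 1 library per group does not give. In the control 82.1% of expressed genes had a TPM below that of PITX1, 66.3% below that of TP63 and 14.3% below that of SOX2.

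Among the relatives of the members TP73 and MAFG passed 2-fold. TP63 lay within 1.5-fold, while its relative TP73 went from 406 to 1012 counts. Its level was 14.8 CPM in the control and was 37.4 CPM in the library labelled sh-HIPK2, 2.53 times higher (2.25 to 2.84). TP63 had a ratio of 1.04.

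Among 9 expressed SOX genes 0 passed 2-fold in CPM + 1, beside 6.13% of all expressed genes, and SOX2 was far from the most abundant. SOX15, a SOX gene of keratinocytes and muscle precursors, was at 248 TPM in the control against 1.07 TPM for SOX2. SOX15 went from 5489 to 2942 counts, or from 200.1 to 109 CPM, 1.84-fold lower (1.76 to 1.93) in the library labelled sh-HIPK2. It shares 15 exon bases with MPDU1 on the opposite strand. SOX1 had a ratio of 1.68 (1.33 to 2.13), and SOX18, with 6 and 29 counts, one of 4.90 (1.999 to 14.4). SOX18 thus passed 2-fold without the pseudocount of 1 CPM, as did 10.8% of all expressed genes. The family median was -0.03 in CPM and 0.04 in TPM, beside 0.0 and 0.08 over all expressed genes. Its sign changed with the unit, but it lay slightly below the background in both.

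Of 12 expressed KLF genes 11 lay within 1.5-fold, beside 79.4% of all expressed genes, and 0 passed 2-fold, beside 6.13%. With 12 genes these counts do not stand apart from the background. The furthest was KLF2 the furthest with 152 and 82 counts, 1.83-fold lower (1.39 to 2.42). KLF16 was the most abundant in CPM at 129 and 133. The KLF median was -0.05 in CPM and 0.01 in TPM, again slightly below the 0.0 and 0.08 over all expressed genes. KLF4 itself had a log2 ratio that ranged from -0.0014 to 0.075 over the scalings and TPM.

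In the smaller families GRHL2, a grainyhead-like factor of epithelial junctions, was expressed at 18.7 and 23.1 CPM, with a ratio of 1.24 (1.101 to 1.40). GRHL1 had 74 and 63 counts. GRHL2 and GRHL1 therefore stayed counted in both libraries, where GRHL3 had 17 and 0 counts. TFAP2C, the AP-2 gamma factor, was at 22.4 and 24.8 CPM, a ratio of 1.11 (0.990 to 1.24). TFAP2A and TFAP2C were thus the expressed AP-2 genes, and both lay within 1.5-fold, beside 79.4% of all expressed genes.

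The MAF family had no MAF but much of the small MAF proteins, which lack a transactivation domain and pair with other leucine zipper factors. MAFK was at 212 and 151 CPM, 1.40-fold lower (1.35 to 1.46), and shares 809 exon bases with TMEM184A on the opposite strand. MAFG went from 483 to 1372 counts, 2.88 times higher (2.59 to 3.20), and shares 105 exon bases with SIRT7 on the same strand. MAFG was the single MAF gene past 2-fold among 4 expressed, beside 6.13% of all expressed genes.

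**Figure D4:**
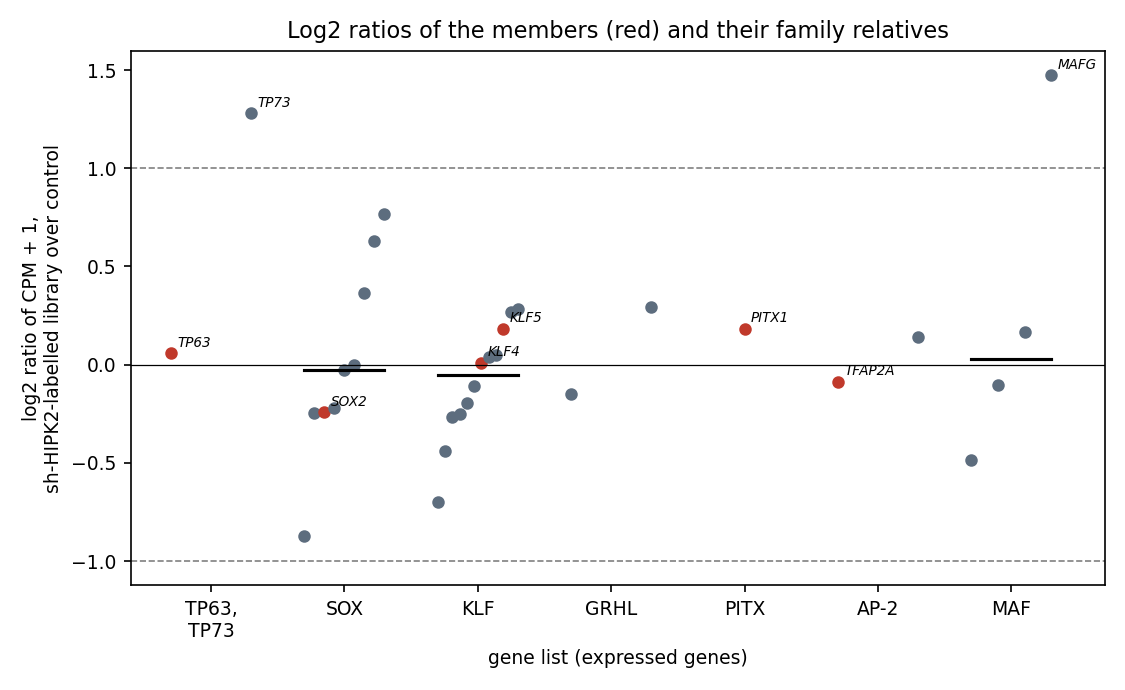
Log2 ratio of CPM + 1, library labelled sh-HIPK2 over control, for expressed genes of 7 families, with members in red, relatives in grey and the median as a bar where at least 3 genes are drawn. Dashed lines mark 2-fold, and TP73 and MAFG lie above the upper line while the red points lie between -0.24 and 0.18.

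Other transcription factors of stratified epithelium, a list of 30 genes that includes some of these relatives, had 26 expressed members. Of these 3 exceeded 2-fold upwards and 1 downwards, beside 3.26% and 2.87% of all expressed genes. Within 1.5-fold lay 13 of 26, beside 79.4%. The median log2 ratio was 0.22 (0.39 in TPM), beside 0.0 (0.08 in TPM) over all expressed genes. BARX2, a homeobox gene of epithelial and muscle cells, went from 158 to 509 counts, 3.27 times higher (2.73 to 3.93) in the library labelled sh-HIPK2. ELF3, an epithelial ETS factor, was 2.25 times higher (2.09 to 2.41), at 40.6 and 91.4 CPM. FOXE1, a forkhead gene, had 90 and 25 counts and was 3.55-fold lower (2.26 to 5.77). CEBPA, which restrains keratinocyte growth, was 1.98 times higher (1.72 to 2.27) and NR3C1, the glucocorticoid receptor gene, 2.06 times (1.71 to 2.501). These last 2 had log2 ratios of 0.92 and 0.94 with the pseudocount, just inside 2-fold. Without the pseudocount 5 passed upwards and 1 downwards, beside 6.15% and 4.61% of all expressed genes, the added ones being NR3C1 and the homeobox gene DLX3 (12 and 41 counts).

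Genes of the basal layer were mixed while TP63 differed little. Of 21 basal keratinocyte genes, all expressed, 14 were lower and 7 higher in the library labelled sh-HIPK2. Past 2-fold were 4 lower and 1 higher, beside 2.87% and 3.26% of all expressed genes. Their median was -0.12 on the log2 scale, and 13 of 21 lay within 1.5-fold, beside 79.4%. KRT14, a basal keratin, had 318 and 44 counts and resembles other keratin genes closely enough to share reads with them. KRT5, the partner of KRT14, was 1.08-fold lower (1.07 to 1.09) in CPM. In TPM KRT5 was higher, at 1624 in the control and 1765 in the library labelled sh-HIPK2, so its direction depends on the unit. BNC1, a basal zinc finger gene, was 2.16-fold lower (1.81 to 2.58). CD44 had a log2 ratio of -1.03 and ITGA6, of the hemidesmosome, one of -0.89. FAT2, a protocadherin of squamous epithelium, was 2.19 times higher (2.11 to 2.27), at 160.0 and 351 CPM.

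Of 40 genes of terminal differentiation 19 were expressed, 12 of them lower and 7 higher. The other 21 stayed under 1 CPM, and 10 of them had 0 counts in both libraries. Of the rest only CALML5 (1 and 17) and CERS3 (4 and 20) had more counts in the library labelled sh-HIPK2. Fewer counts there were seen for SPRR1A (21 and 6), IVL (11 and 2), KRT13 (13 and 5) and MAL (6 and 0). SPRR3 (6 and 4), LCE3D (4 and 1) and CDSN (14 and 13) also had fewer, while FLG and ALOX12B had equal counts. These low genes were named after their values were seen. Past 2-fold in CPM + 1 were 2, both lower, beside 2.87% of all expressed genes. Without the pseudocount 6 were lower and 2 higher past 2-fold, beside 4.61% and 6.15%. The median log2 ratio was -0.45 (-0.34 in TPM), beside 0.0 (0.08 in TPM) over all expressed genes. Within 1.5-fold lay 10 of 19, beside 79.4%. SPRR2D, of the cornified envelope, had 177 and 15 counts, and AQP3, a water and glycerol channel, was 2.81-fold lower (2.49 to 3.18) at 36.3 and 12.9 CPM. The related SPRR2A (47 and 11 counts) was 4.21-fold lower (2.15 to 9.01) and SPRR1B (46 and 15 counts) 3.03-fold (1.66 to 5.83), but SPRR genes are near-identical and can exchange reads. SCEL, sciellin of the envelope, had 40 and 11 counts, 3.59-fold lower (1.81 to 7.75). ECM1, a secreted glycoprotein of skin, went the other way with 83 and 177 counts, 2.16 times higher (1.66 to 2.84). KRT1, KRT4, LOR, TGM3 and CRNN had 0 counts in both libraries, as MAF did.

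**Figure D5:**
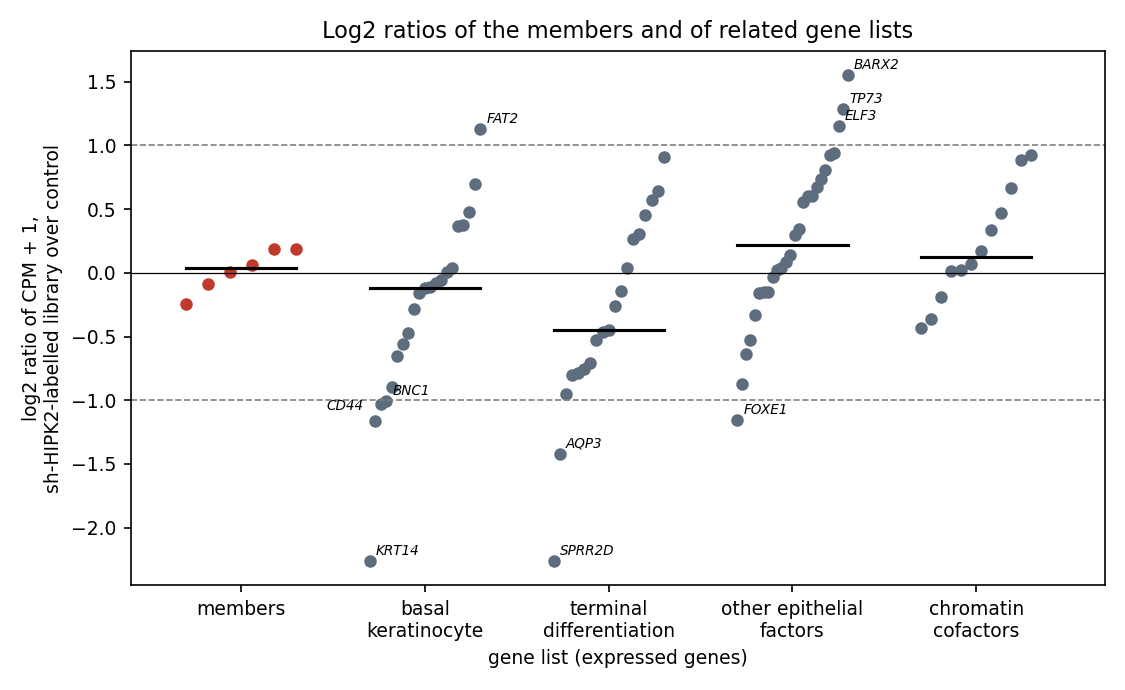
Log2 ratio of CPM + 1, library labelled sh-HIPK2 over control, for the expressed members (red) and for 4 related lists, with list medians as bars and 2-fold as dashed lines. The 6 members span -0.24 to 0.18, and the related lists reach past 2-fold except for the chromatin cofactors.

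Chromatin cofactors known to work with these factors were all expressed, and 0 of 12 passed 2-fold in CPM, beside 6.13% of all expressed genes. With 12 genes this count does not stand apart from the background. KDM1A, the lysine demethylase that ZNF750 recruits, was at 313 and 580 CPM, 1.85 times higher (1.80 to 1.90) in the library labelled sh-HIPK2. KMT2D, a methyltransferase that partners with p63, was 1.92 times higher (1.79 to 2.05) and the acetyltransferase EP300 1.61 times (1.48 to 1.75). The 3 lower ones were CTBP2 (log2 ratio -0.43), ACTL6A (-0.36) and HDAC1 (-0.19), against 9 higher, and the median was 0.12. In TPM the split was 7 higher and 5 lower, and 3 of 12 passed 2-fold (CTBP2, CREBBP and HDAC2), beside 4.9% of all expressed genes. Of 6 enzymes that modify or degrade the proteins of TP63 or KLF5, 0 passed 2-fold in CPM + 1, beside the same 6.13%. They were HIPK2 itself, with a log2 ratio of 0.85 in CPM + 1, a plain CPM ratio of 2.01 (1.59 to 2.55) and a log2 ratio of -0.49 in TPM, the ubiquitin ligases WWP1 (0.49), ITCH (0.17), RCHY1 (-0.28) and FBXW7 (-0.01), and the deubiquitinase BAP1 (0.26).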

How the data were processed

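RNA from 2 Cal-27 cultures was sequenced as 1 library each. Reads were aligned with TopHat2 2.1.1 on GRCh38 after FastQC, per the submitters' processing notes. The sources used here do not give the counting tool, annotation or strand setting. Per the file headers, each of 20263 genes has a deposited count, TPM and FPKM. The deposited counts are whole numbers and not normalized, and the deposited FPKM was not used beyond its unit check.

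Counts were scaled to CPM with TMM factors (0.977 and 1.02) from edgeR 4.0.16 in R 4.3.3, and 1 count was worth 0.0365 and 0.037 CPM. The log2 ratio used a pseudocount of 1 CPM. No test was possible with 1 library per group, so a rule of 2-fold among genes at 1 CPM or more describes size. Intervals are 95% exact ones from scipy 1.17.1, for counting error only, since reads carried no molecular identifiers. The code for the size rule and intervals was run on simulated counts that held counting error only. That run checks the code and does not cover variation between cultures or genes as low as SOX2, GRHL3 and ZNF750. Exon sharing and transcript lengths came from GENCODE 29, and promoter windows from RefSeq (GRCh38.p14).

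The members and gene lists were chosen with earlier results of these data known. All members, their relatives, cofactors and modifying enzymes could be named, and up to 6 genes of the basal, terminal and other-factor lists with the largest absolute log2 ratio. MUC2, on a marker list, was not analysed here. A few nameable genes are not reported here. Alternatives were other scalings, TPM, other pseudocounts or none, filters and a rule of 1.5-fold.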

Additional observations from a re-analysis of the deposited data

How the results depend on the processing

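Leaving out a replicate could not be tried with single libraries. No paired analysis was possible because there was 1 library on each side. The count of expressed members past 2-fold was 0 under all 10 alternatives, but most of these could hardly have raised it. No filter, a 10 CPM filter and pseudocount 5 could not raise it by their construction. Total counts, upper-quartile and DESeq2 factors shift all ratios by similar small amounts. The median over all expressed genes was -0.011 to 0.0654 under them, while the furthest expressed member, SOX2, lay at -0.24. Pseudocount 0.1 and no pseudocount took SOX2 to -0.36 and -0.39. That leaves TPM and the 1.5-fold rule, under which the count was 0 as well. No pseudocount was chosen after seeing the data, and it gives no value for GRHL3 and MAF. Of 61 member ratios under other settings, 56 stayed within the counting interval or, for MAF, at 0. MAF has 0 counts in both libraries and no interval, so its ratio could not move. The exceptions were PITX1 in TPM (0.78 against 0.18) and GRHL3, whose -0.70 was -0.698 with DESeq2 size factors, -0.38 in TPM, -2.85 at pseudocount 0.1 and -0.17 at pseudocount 5. Genes past 2-fold (385 higher, 339 lower) numbered 726 and 544 with no pseudocount, 676 and 515 at pseudocount 0.1, 124 and 161 at pseudocount 5, 159 and 217 under the 10 CPM filter, and 1254 and 1176 by the 1.5-fold rule. Of 117 list medians, 109 stayed within the medians of their genes' interval bounds. The others were the basal list at -0.0535 (total counts) and -0.0478 (upper quartile), the terminal list at 0 with no filter, the other factors at 0.39, the family of TP63 and TP73 at 0.33 and the grainyhead-like family at 0.52 (all TPM), and the PITX family at 0.13 (TPM) and 0.18 (10 CPM, 1 gene left). The median over all expressed genes was 0.0605 with total counts, 0.0654 with upper-quartile factors and 0.0771 in TPM, against 0.0 in the main setting. Apart from the scalings of counts, which shift all ratios, and filters and pseudocounts, whose construction changes low genes, the cause was not tested. Depth limits SOX2, GRHL3, ZNF750 and MAF.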

Other observations

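Genes beside the members were examined after results were known. Within 500 kb of the 9 members lay 47 other expressed genes, of which 4 passed 2-fold, 8.51% beside 6.13% of all expressed genes. P3H2, a collagen prolyl hydroxylase gene next to TP63, went from 432 to 935 counts, 2.19 times higher (1.96 to 2.46) in the library labelled sh-HIPK2, where TP63 had a ratio of 1.04. The other 3 lay near GRHL3. PNRC2, a nuclear receptor coactivator, had 81 and 497 counts, 6.22 times higher (4.91 to 7.97). FUCA1, a lysosomal fucosidase, had 316 and 117 counts and was 2.66-fold lower (2.15 to 3.32). STPG1 was 2.94-fold lower (2.34 to 3.72), with 301 and 101 counts and exons shared with NIPAL3. SOX2 had 0 expressed neighbours in this window, and the 9 near PITX1 and 12 near ZNF750 included 0 past 2-fold.

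Among the cofactors, 3 differed between units as PITX1 did. CREBBP, an acetyltransferase, had 1406 and 1400 counts but 31.0 and 11.3 TPM. HDAC2, a deacetylase, had 626 and 649 counts but 4.18 and 11.9 TPM. CTBP2, a corepressor that ZNF750 binds, had 1136 and 823 counts but 20.8 and 8.82 TPM, and shares 3416 exon bases with ZRANB1 on the opposite strand. The implied length in the library labelled sh-HIPK2 was 2.96 times that in the control for CREBBP, 0.395 times for HDAC2 and 1.86 times for CTBP2, beside 0.703 times for PITX1.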
